A study of Mus musculus with 26 samples.

Results

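A group of 7 genes that govern how T cells enter, cross and leave lymphoid tissue was followed across the RNA-seq libraries of a study of regulatory T cells (Treg) in mice. They were chosen by name: Ccr7, S1pr1, S1pr4, Klf2, Cxcr4, Cxcr5 and Gpr183. All 7 are among the 24411 genes of the deposited count table, and all 7 were among the 12227 genes with enough reads to be tested.

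Circulating T cells enter lymph nodes through adhesion molecules and the chemokine receptor CCR7, which senses CCL19 and CCL21. They leave when S1PR1 senses sphingosine 1-phosphate, which is high in blood and lymph and low in tissue. KLF2 is a transcription factor of quiescent T cells that maintains the gene for S1PR1. CXCR5 guides cells toward CXCL13 in B cell follicles, GPR183 guides them along gradients of oxysterols at the follicle border, CXCR4 senses CXCL12, and S1PR4 is a further lymphocyte receptor for sphingosine 1-phosphate.

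The study compared CD4+ T cells sorted fresh from C57BL6/J mice (lymph nodes and spleen), in 13 groups of 2 libraries each. Foxp3, the transcription factor that defines Treg, is read out in these mice by a human CD2 (hCD2) reporter, and the groups fall into 5 sets with their own controls. Comparisons were made only within a set. Nothing in the labels states if paired libraries came from separate animals or from pools, so the p-values measure the spread between these libraries, which may be technical.

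In the sorted set the mice were Foxp3-IRES-hCD2. Central Treg (cTreg) were hCD2+ with high CCR7 and low CD44. Effector Treg (eTreg) were hCD2+ with low CCR7. Naive conventional cells (Tnaive) and effector conventional cells (Teff) carried the same 2 gates on hCD2- cells. Because CCR7 protein helped to define these gates, Ccr7 received no test between effector and resting cells.

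The germline set held WT Treg (hCD2+, Foxp3-IRES-hCD2), BATFKO Treg (hCD2+, Foxp3-IRES-hCD2 with Batf-/-, so that BATF is missing from all cells of the mouse) and Tconv. The last are titled conventional cells and were sorted as hCD2- from Foxp3-IRES-hCD2 mice, although their cell type label reads Treg. Their Foxp3 level was 2.57 and 4.07 normalised counts (CPM, counts scaled to a common library size), against 404 and 505 CPM in WT Treg. The conditional set held YFP+ hCD2- Treg from mice with both Foxp3-IRES-YFPCre and Foxp3-IRES-hCD2 alleles, with normal Batf (WT Treg YFP) or Batf flox/flox (BATFcKO Treg YFP). Here Cre is driven by Foxp3, so that deletion follows Foxp3 expression, and the sorted cells are those using the Cre allele. The other 2 sets held hCD2+ GFP- cells from mice that also carry a Foxp3-IRES-GFP allele. Their hCD2 allele bore normal Foxp3 (R397W control and Foxp3KO control), the missense allele Foxp3R397W, or the frameshift allele Foxp3fs101 (Foxp3KO Treg). All 4 of these groups share the GFP allele, and the sort left out GFP+ cells.

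Total counts per library ranged from 5615929 to 7300917 in the germline set, 5790232 to 6813077 in the conditional set, 6036966 to 6831764 in the R397W set, 9774025 to 10641332 in the sorted set and 26321134 to 34613707 in the Foxp3KO set. The targeted genes followed the labels. Batf was 7.22 and 6.83 CPM in BATFKO Treg against 46.1 and 82.9 CPM in WT Treg, and 19.5 and 15.9 CPM in BATFcKO Treg YFP against 67.8 and 58.5 CPM in WT Treg YFP. Foxp3 was 109 and 113 CPM in Foxp3KO Treg against 348 and 326 CPM in its control, and 359 and 343 CPM in Foxp3R397W Treg against 452 and 380 CPM, where a missense allele is still transcribed. Summed CPM of the 7 CD4 T cell markers in the table stayed between 4227 and 5778 in every library. The germline libraries stood apart in 1 respect. The 2 libraries of each group there differed more (chi-square per degree of freedom between libraries of 21.7 to 29.9) than those of the other 10 groups (at most 7.79).

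Promoter windows are shown so that members that fell in eTreg (Klf2 and S1pr4) can be set beside one that rose (Gpr183) and one that did not pass the test (Cxcr4). RefSeq (GRCm38.p6) gave a window of 250 bases before to 50 after the start for 4 of the 7, and Ccr7, S1pr1 and Cxcr5 are named only. Each is printed 5′ to 3′ on the gene's strand, with every match to the KLF family motif CCNCNCCC on either strand in capitals. The windows lie at chr8:72318812-72319111 (plus strand) for Klf2, chr1:128592250-128592549 (minus) for Cxcr4, chr10:81500088-81500387 (minus) for S1pr4 and chr14:121965144-121965443 (minus) for Gpr183.
Klf2: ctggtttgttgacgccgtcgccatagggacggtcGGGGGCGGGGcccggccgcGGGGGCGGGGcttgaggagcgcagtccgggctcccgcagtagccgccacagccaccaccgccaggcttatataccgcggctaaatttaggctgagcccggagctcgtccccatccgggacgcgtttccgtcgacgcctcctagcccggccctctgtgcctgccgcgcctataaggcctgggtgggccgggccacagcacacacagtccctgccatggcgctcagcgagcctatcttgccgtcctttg
Cxcr4: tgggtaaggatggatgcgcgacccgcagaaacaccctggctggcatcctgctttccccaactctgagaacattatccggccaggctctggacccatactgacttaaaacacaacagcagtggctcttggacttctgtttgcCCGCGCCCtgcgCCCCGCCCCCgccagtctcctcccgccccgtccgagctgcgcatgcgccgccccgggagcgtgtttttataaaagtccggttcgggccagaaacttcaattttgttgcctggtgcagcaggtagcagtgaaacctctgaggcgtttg
S1pr4: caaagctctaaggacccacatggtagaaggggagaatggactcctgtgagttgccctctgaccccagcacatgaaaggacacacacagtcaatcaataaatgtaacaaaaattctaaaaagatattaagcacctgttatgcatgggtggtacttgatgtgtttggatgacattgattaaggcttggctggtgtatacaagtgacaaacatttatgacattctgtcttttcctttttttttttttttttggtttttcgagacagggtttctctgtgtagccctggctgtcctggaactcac
Gpr183: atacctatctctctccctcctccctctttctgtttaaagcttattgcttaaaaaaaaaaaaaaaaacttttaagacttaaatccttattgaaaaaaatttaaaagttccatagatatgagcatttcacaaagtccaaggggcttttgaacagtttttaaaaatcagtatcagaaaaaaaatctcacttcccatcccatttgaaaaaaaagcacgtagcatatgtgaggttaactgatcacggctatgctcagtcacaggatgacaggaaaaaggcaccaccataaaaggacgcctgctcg
The Klf2 window held 4 matches, overlapping in 2 runs, and the Cxcr4 window 3 matches, of which 2 overlap. The S1pr4 and Gpr183 windows held none. Of all 32851 RefSeq mouse windows of this length, 49.5% hold the KLF motif, so a match is a common feature. The forkhead core TGTTTAC and the AP-1 motif TGANTCA, found in 3.65% and 7.81% of the windows, had no match in these 4.

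In the GRCm38 annotation (GENCODE M21) the 7 genes are protein coding and lie on separate chromosomes. Ccr7 is at chr11:99144196-99155077 (minus strand), S1pr1 at chr3:115710433-115715072 (minus), S1pr4 at chr10:81497747-81500132 (minus), Klf2 at chr8:72319033-72321656 (plus), Cxcr4 at chr1:128588199-128592293 (minus), Cxcr5 at chr9:44511787-44561877 (minus) and Gpr183 at chr14:121952551-121965195 (minus). To compare levels between genes, CPM was divided by exon length in kilobases (RPKM). By the median over the 26 libraries, Klf2 had the highest level per length (306 RPKM), followed by Ccr7 (188 RPKM), S1pr1 (185 RPKM), Cxcr4 (92.9 RPKM), S1pr4 (91.3 RPKM), Gpr183 (32.1 RPKM) and Cxcr5 (9.43 RPKM). Ccr7 and S1pr1, and likewise Cxcr4 and S1pr4, had medians closer to each other than their ranges over libraries. The order of the genes was not fixed: in eTreg the mean of Cxcr5 (45.6 RPKM) stood above that of Ccr7 (43.9 RPKM).

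**Figure D1:**
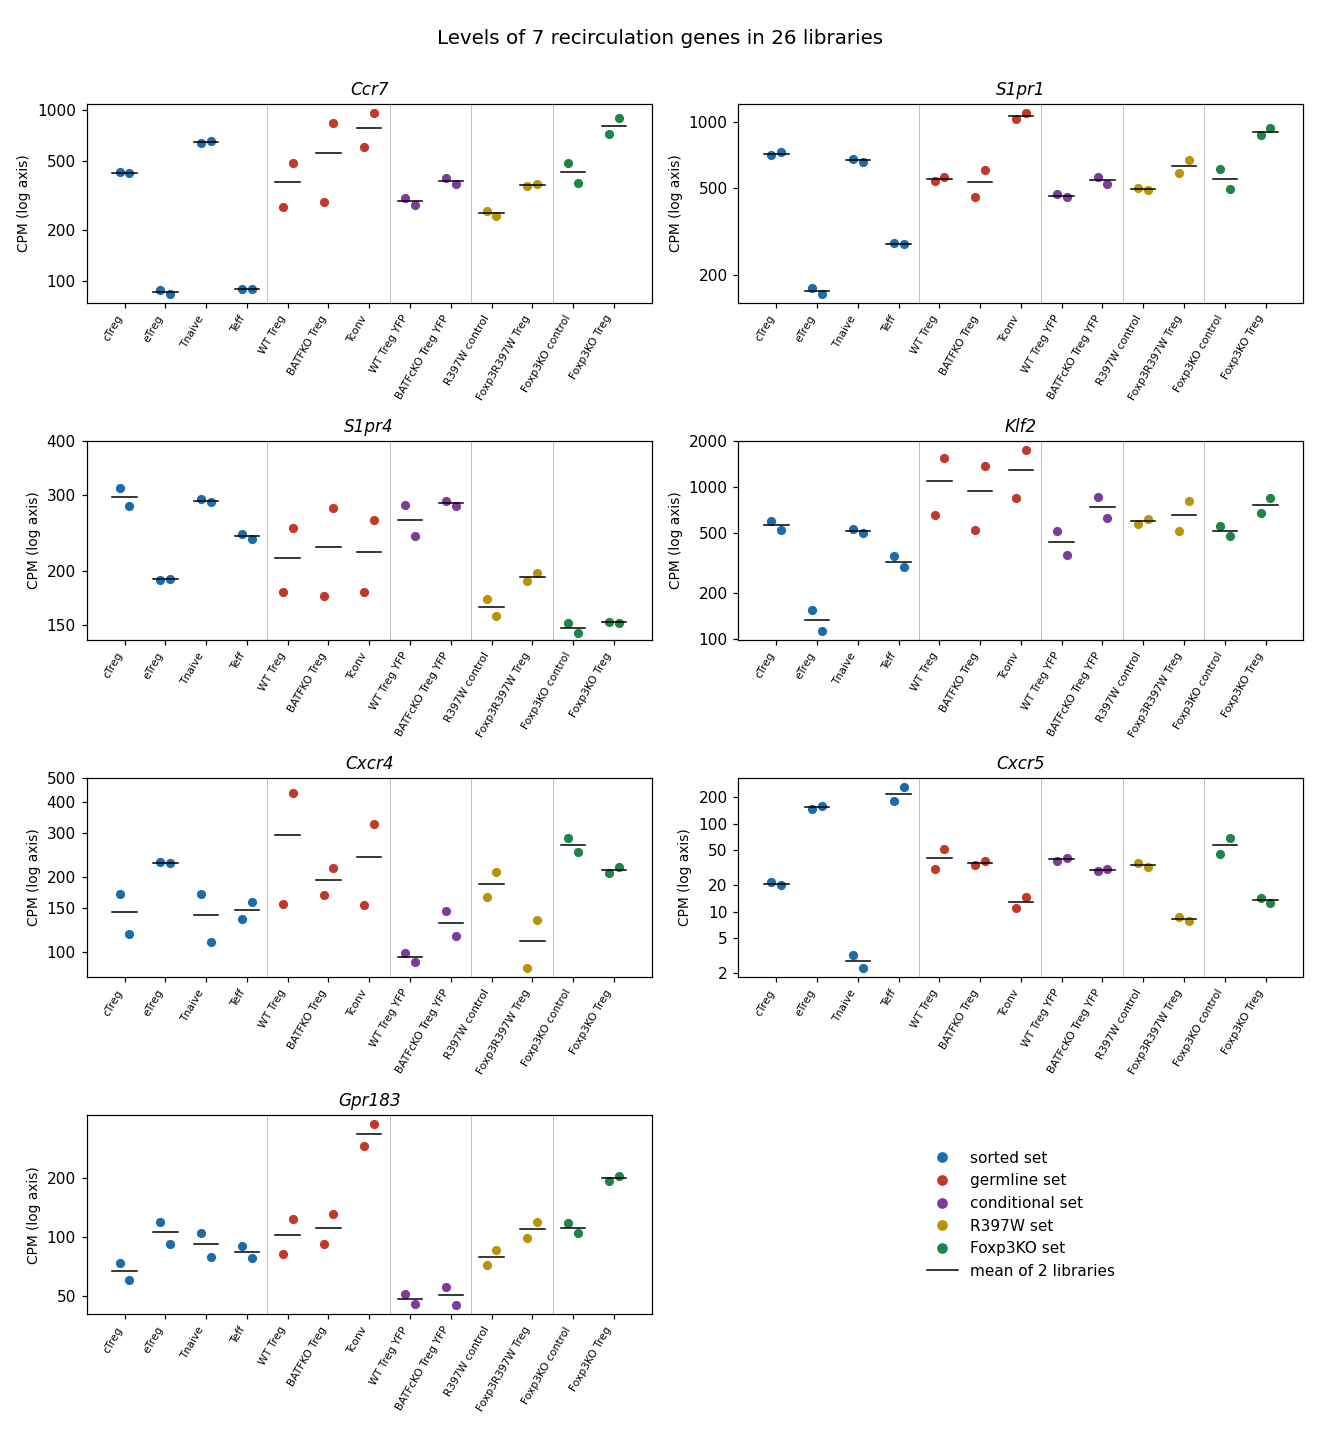
Level of each of the 7 genes in all 26 libraries, as CPM on a log axis that does not start at 0; points are libraries, black bars the mean of the 2 libraries of a group, colours the 5 sets. Ccr7, S1pr1 and Klf2 have their lowest group mean in eTreg, whereas Cxcr5 is lowest in Tnaive and highest in Teff.

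Effector and resting cells were compared first. In Treg, S1pr1, the main exit receptor, had 706 and 730 CPM in the 2 cTreg libraries and 174 and 164 CPM in the 2 eTreg libraries. Both eTreg libraries were far below both cTreg libraries, a 4.25-fold lower level (log2 change -2.09 ± 0.13 SE, edgeR adjusted p = 7.1e-10). In conventional cells S1pr1 was 679 and 662 CPM in Tnaive and 279 and 276 CPM in Teff. The groups again did not overlap, with a 2.42-fold lower level in Teff (log2 change -1.27 ± 0.12 SE, edgeR adjusted p = 1.3e-07).

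Klf2, the quiescence factor, was 597 and 522 CPM in cTreg and 155 and 113 CPM in eTreg. It fell 4.18-fold (log2 change -2.06 ± 0.42 SE, edgeR adjusted p = 0.00089), almost the same size as S1pr1. In conventional cells its values were 529 and 494 CPM in Tnaive against 350 and 296 CPM in Teff. These did not overlap either, but the difference did not pass the test (log2 change -0.66 ± 0.41 SE, edgeR adjusted p = 0.23). With the spread estimated from the Tnaive and Teff libraries alone, Klf2 was called lower (edgeR adjusted p = 0.00049). It was also called with library number added to the model (edgeR adjusted p = 0.012), but not by DESeq2 (adjusted p = 0.28). So the main test does not show that Klf2 fell only in Treg.

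S1pr4, a further receptor for sphingosine 1-phosphate, had the narrowest range of the 7 genes over the groups. It went from 311 and 283 CPM in cTreg to 190 and 192 CPM in eTreg, a 1.55-fold lower level (log2 change -0.64 ± 0.19 SE, edgeR adjusted p = 0.013). Leaving out cTreg library 1, eTreg library 1 or eTreg library 2 ended this call (edgeR adjusted p = 0.092, 0.068 and 0.069). In Tnaive it was 293 and 289 CPM and in Teff 243 and 238 CPM (log2 change -0.27 ± 0.18 SE, edgeR adjusted p = 0.28). Here too S1pr4 was called lower with the spread from the Tnaive and Teff libraries alone (edgeR adjusted p = 0.0066). Adding library number also gave a call (edgeR adjusted p = 5e-04), and DESeq2 did not (adjusted p = 0.31).

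Ccr7, the entry receptor, was 431 and 428 CPM in cTreg, 88.7 and 84.9 CPM in eTreg, 642 and 655 CPM in Tnaive and 90.6 and 90.0 CPM in Teff. Its transcript thus sat 4.95-fold lower in eTreg than in cTreg and 7.18-fold lower in Teff than in Tnaive. As its protein set these gates, these folds are descriptions of the sort.

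The follicle receptor Cxcr5 went the other way. It was 21.4 and 20.1 CPM in cTreg and 145 and 159 CPM in eTreg, 7.31-fold higher (log2 change 2.87 ± 0.23 SE, edgeR adjusted p = 2.4e-08). In Tnaive it was near the floor of detection, with 32 and 23 reads (3.26 and 2.30 CPM), against 179 and 259 CPM in Teff. The latter difference was the largest of the 7 genes in any comparison, 78.6-fold (log2 change 6.30 ± 0.30 SE, edgeR adjusted p = 1.1e-11).

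Gpr183, the oxysterol receptor, was 73.9 and 60.4 CPM in cTreg and 119 and 92.9 CPM in eTreg, 1.58-fold higher (log2 change 0.66 ± 0.21 SE, edgeR adjusted p = 0.022). The call was lost without cTreg library 2 or without eTreg library 1 (edgeR adjusted p = 0.18 and 0.21). In conventional cells the libraries overlapped, at 105 and 79.9 CPM in Tnaive and 90.5 and 78.5 CPM in Teff.

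Cxcr4, the receptor for CXCL12, was 171 and 117 CPM in cTreg and 229 and 228 CPM in eTreg. The eTreg libraries were higher than both cTreg libraries, but the cTreg libraries differed widely and the test was not passed (log2 change 0.66 ± 0.37 SE, edgeR adjusted p = 0.20). In Tnaive (171 and 109 CPM) and Teff (135 and 158 CPM) the groups overlapped.

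Of the 6 genes tested between eTreg and cTreg, 2 were thus called higher and 3 lower, where over all genes tested 18.8% were called higher and 12.3% lower. Between Teff and Tnaive 1 of 6 was higher and 1 lower, against 21.2% higher and 14% lower over all genes. The median log2 change of the 6 was 0.01 in Treg and -0.20 in conventional cells, against 0.01 over all genes in both.

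**Figure D2:**
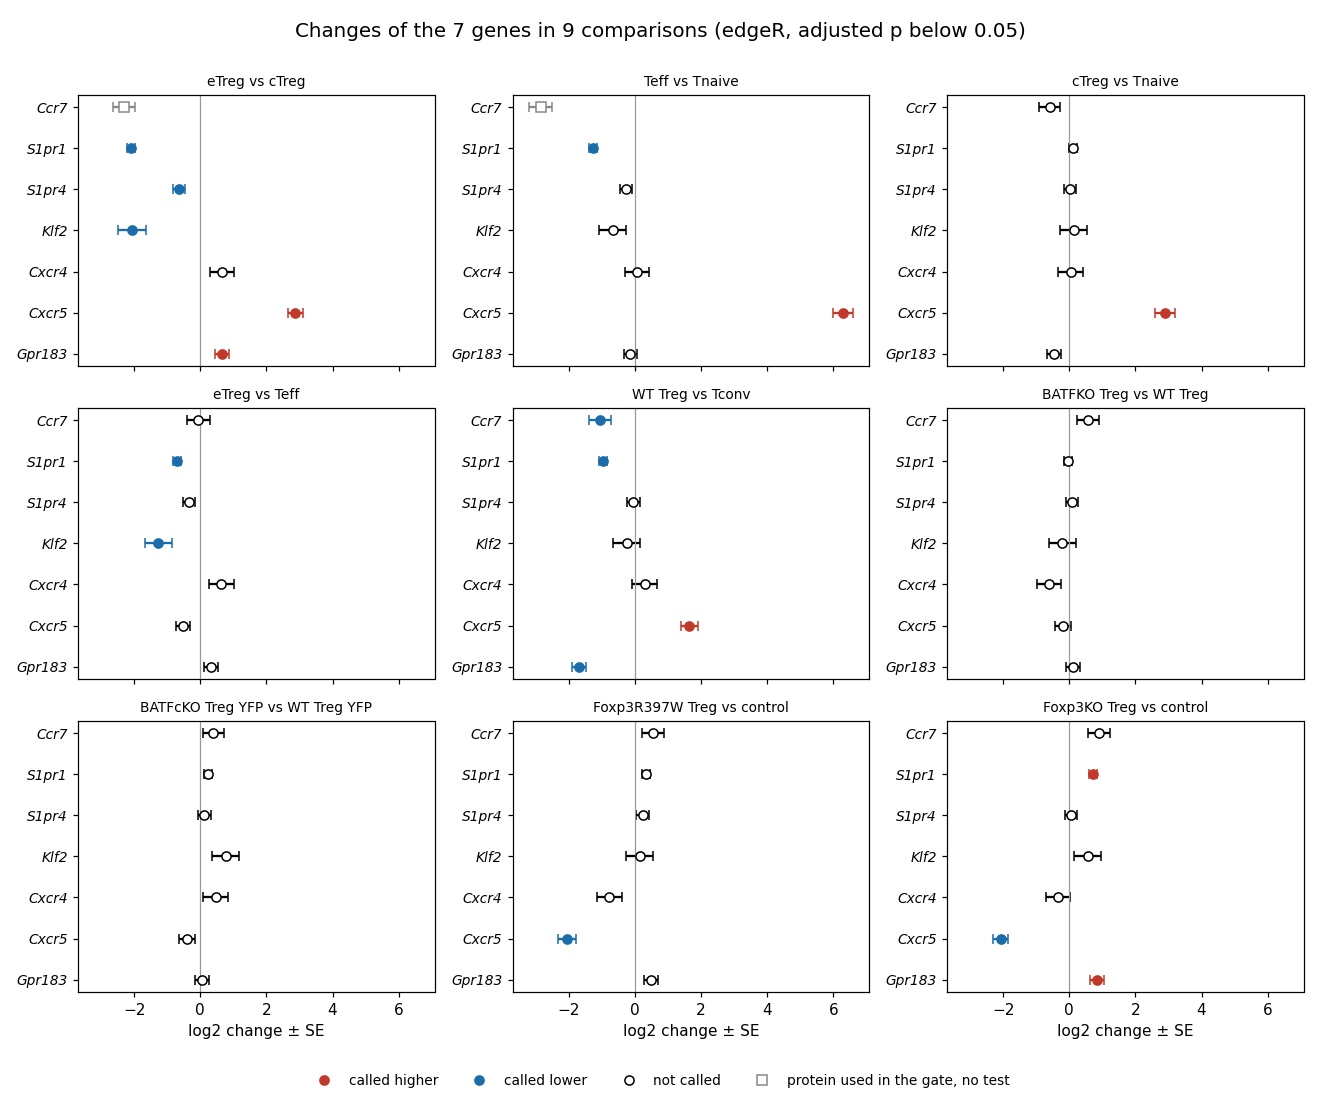
Log2 change with its standard error for each gene in the 9 comparisons between 2 groups; filled circles passed edgeR's test at an adjusted p below 0.05, open circles did not, and open squares mark Ccr7 where its protein defined the gate. S1pr1 and Cxcr5 carry most of the calls, and the 2 BATF panels hold none.

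Summed markers of other cell types were higher in the libraries of effector conventional cells than in the other sorted groups. Summed plasmacytoid dendritic markers (10 of 10 with reads) reached 340 to 714 CPM in Teff and 207 to 324 CPM in the other 3 sorted groups, summed myeloid and dendritic markers 86.8 to 241 CPM against 11.9 to 27.4 CPM, and summed CD8 and NK markers 331 to 452 CPM against 31.5 to 81.0 CPM. Siglech, which defines plasmacytoid dendritic cells, was 92.3 CPM in Teff library 1 and 19.98 CPM in Teff library 2, and at most 0.10 CPM in the other 6 sorted libraries. Teff library 1 was the higher of the 2 for all 3 sums, and its Cxcr5 level was the lower of the 2. The CD8 and NK list was mixed: of 9 tested markers, 7 were called higher and 2 lower in Teff than in Tnaive (all genes 21.2% and 14%). Cd8a was 2.35 and 0.91 CPM in Teff. The part of other cell types in the values of Teff was not tested. With bulk libraries, fewer cells of a type and less RNA per cell cannot be told apart.

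B cells also express Cxcr5. Summed B cell markers (8 of 10 in the table) were 61.1 to 61.6 CPM in eTreg and 74.4 to 76.4 CPM in Teff, against 14.3 to 15.7 CPM in cTreg and 8.45 to 9.09 CPM in Tnaive. Most of this came from Cd22 (40.5 and 37.4 CPM in eTreg, 57.4 and 68.5 CPM in Teff) and, in Treg, from Cd79b. The defining B cell genes Ms4a1 and Pax5 did not exceed 0.98 and 0.20 CPM in any of the 26 libraries.

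Whether Treg and conventional cells changed by different amounts was tested in the same model, as the eTreg against cTreg change minus the Teff against Tnaive change. S1pr1 fell further in Treg, with a difference of -0.81 ± 0.17 (SE) on the log2 scale (edgeR adjusted p = 0.0056). Cxcr5 rose less in Treg, with a difference of -3.42 ± 0.37 (SE) on the log2 scale (edgeR adjusted p = 8.6e-06). Its resting level was 20.8 CPM in cTreg and 2.78 CPM in Tnaive, and its effector level 152 CPM in eTreg and 219 CPM in Teff. No difference was called for Klf2 (-1.40 ± 0.58 SE, edgeR adjusted p = 0.25) or Gpr183 (0.79 ± 0.30 SE, edgeR adjusted p = 0.17). The values were -0.36 ± 0.26 (SE) for S1pr4 and 0.60 ± 0.52 (SE) for Cxcr4. So 2 of 6 members were called, against 5.42% of all genes. With the spread estimated from these 8 libraries alone, the differences of Klf2 and S1pr4 were called too (edgeR adjusted p = 0.0089 and 0.019).

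**Figure D3:**
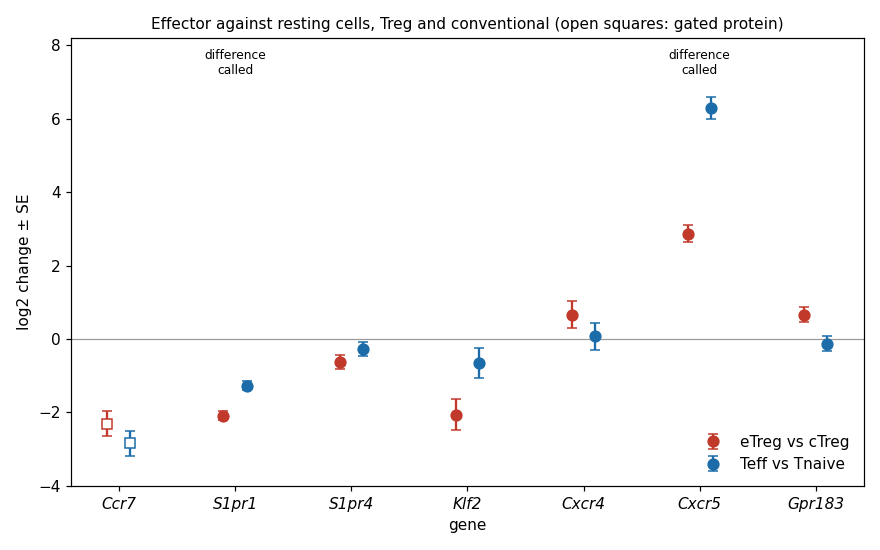
Log2 change with its standard error of effector against resting cells, in Treg (red) and in conventional cells (blue); open squares mark Ccr7, whose protein was gated. The difference between the 2 lineages was called for S1pr1, which fell further in Treg, and for Cxcr5, which rose further in conventional cells.

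Treg and conventional cells of the same gate were compared next. Among resting cells, cTreg differed from Tnaive in 1 of 7 members, Cxcr5, which was 7.46-fold higher in cTreg (log2 change 2.90 ± 0.30 SE, edgeR adjusted p = 1.2e-06); the background was 7.91% of genes higher and 4.29% lower. Ccr7, whose gate was the same in both, was lower in both cTreg libraries without passing the test (log2 change -0.59 ± 0.33 SE, edgeR adjusted p = 0.33). The S1pr1, S1pr4, Klf2 and Cxcr4 changes lay between 0.03 and 0.13 on the log2 scale, each within 1 standard error of 0. Gpr183 was lower in both cTreg libraries (73.9 and 60.4 CPM against 105 and 79.9 CPM) and was not called (log2 change -0.46 ± 0.21 SE, edgeR adjusted p = 0.21). With the spread from the cTreg and Tnaive libraries alone, Ccr7 was called lower (edgeR adjusted p = 1e-07) and Gpr183 was not (edgeR adjusted p = 0.082). With library number added to the model, both were called lower (edgeR adjusted p = 0.033 and 4e-04). Among effector cells, 2 of 7 were lower in eTreg than in Teff and 0 higher, where 8.21% of all genes were higher and 7.26% lower. S1pr1 was 1.64-fold lower (log2 change -0.72 ± 0.12 SE, edgeR adjusted p = 0.00033). Klf2 was 2.41-fold lower (log2 change -1.27 ± 0.42 SE, edgeR adjusted p = 0.046), a call that was lost when any 1 of the 4 libraries was left out (edgeR adjusted p = 0.087 to 0.30). The Cxcr5 libraries of the 2 groups did not overlap (145 and 159 CPM against 179 and 259 CPM), yet the difference was not called (edgeR adjusted p = 0.11). Without Teff library 1, which had the lower Cxcr5 value of the 2, the log2 change was -0.77, with 1 Teff library left. The other 4 members were not called, with log2 changes of -0.06 ± 0.33 (SE) for Ccr7, -0.33 ± 0.19 (SE) for S1pr4, 0.64 ± 0.37 (SE) for Cxcr4 and 0.33 ± 0.21 (SE) for Gpr183. With the spread from the eTreg and Teff libraries alone, Cxcr4 was called higher and S1pr4 lower (edgeR adjusted p = 0.0013 and 0.0075). With library number in the model, S1pr4 was called lower and Gpr183 higher (edgeR adjusted p = 0.00016 and 0.006).

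Unseparated Treg and conventional cells were compared in the germline set. Of the 7 members, 3 genes were lower in WT Treg than in Tconv and Cxcr5 was higher, against 6.68% and 12.1% of all genes. S1pr1 was 539 and 561 CPM in WT Treg and 1034 and 1108 CPM in Tconv (log2 change -0.96 ± 0.12 SE, edgeR adjusted p = 1.1e-05). Gpr183 was 82.8 and 124 CPM against 292 and 378 CPM, 3.25-fold lower in WT Treg (log2 change -1.70 ± 0.21 SE, edgeR adjusted p = 9.5e-06). Tconv had the highest Gpr183 level of the 13 groups. Ccr7 was 270 and 491 CPM against 607 and 959 CPM (log2 change -1.04 ± 0.33 SE, edgeR adjusted p = 0.033), and this call was lost without WT Treg library 1 or Tconv library 2 (edgeR adjusted p = 0.25 and 0.23). Cxcr5 was 30.7 and 51.0 CPM against 11.1 and 14.8 CPM, 3.13-fold higher in WT Treg (log2 change 1.64 ± 0.26 SE, edgeR adjusted p = 0.00012). Summed B cell markers were 17.9 to 26.8 CPM in WT Treg and 7.96 to 9.96 CPM in Tconv, and summed CD8 and NK markers 31.5 to 35.4 CPM and 61.4 to 78.0 CPM. Their part was not tested. Klf2, Cxcr4 and S1pr4 overlapped between the groups and were not called. With the spread estimated from these 4 libraries alone, Gpr183 kept its call, whereas Ccr7, S1pr1 and Cxcr5 did not (edgeR adjusted p = 0.23, 0.054 and 0.052).

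The spread in the germline set followed the library number. In each of its 3 groups library 2 exceeded library 1 for all 7 members. The share of all genes with this direction was not counted, so it is not read as a trait of the members. Over all 12227 genes, same-numbered libraries of the 3 groups also deviated together (r of 0.495 to 0.571). The ratio was 2.35, 2.63 and 2.06 for Klf2 in WT Treg, BATFKO Treg and Tconv, 1.82, 2.88 and 1.58 for Ccr7 and 2.79, 1.29 and 2.11 for Cxcr4, but only 1.04, 1.33 and 1.07 for S1pr1. The immediate early gene Jun, which rises during tissue handling, had ratios of 1.95, 2.53 and 1.87. Cd69 went the other way in all 3 groups. From library 1 to library 2 it fell from 373 to 329 CPM in WT Treg, 449 to 342 CPM in BATFKO Treg and 400 to 326 CPM in Tconv. In the conditional set the ratios were 0.70 and 0.73 for Klf2 and 0.44 and 0.52 for Jun. There Cd69 fell as well, from 133 to 98.5 CPM in WT Treg YFP and 240 to 137 CPM in BATFcKO Treg YFP. In the sorted set Jun had ratios of 4.78 in Tnaive and 5.03 in Teff, while Klf2 had 0.93 and 0.85. The part of handling in these values was not tested. Between the single libraries numbered 1 the WT Treg against Tconv change of Ccr7 was -1.17 and between those numbered 2 it was -0.97, values with 1 library a group and no replicate.

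**Figure D4:**
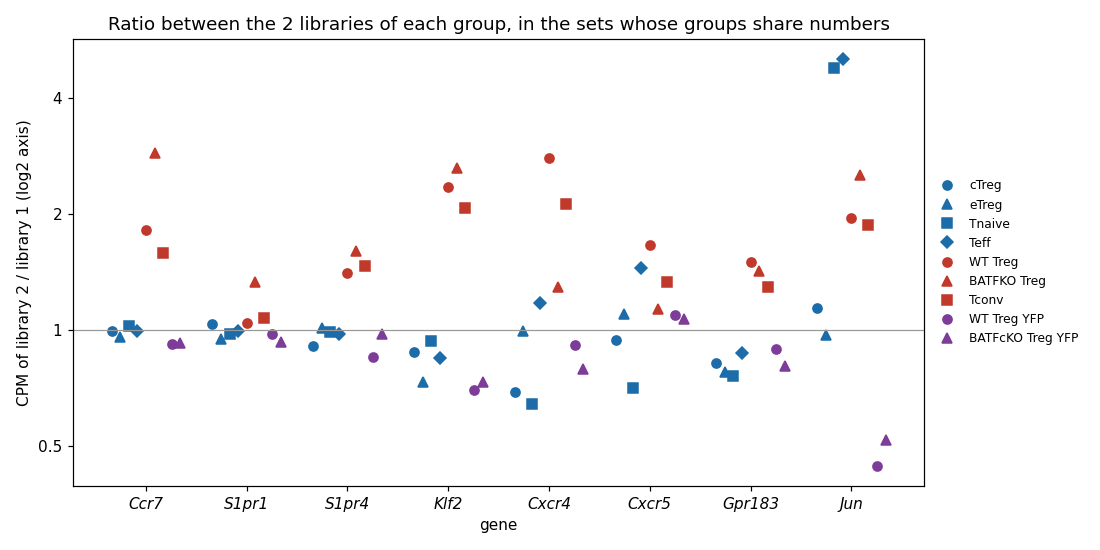
Ratio of the CPM of library 2 to that of library 1 for the 7 genes and Jun, on a log2 axis, for the 9 groups of the sorted (blue), germline (red) and conditional (purple) sets. The germline ratios lie above 1 for all 7 genes, a direction not counted over all genes, whereas S1pr1 is close to 1 in most groups.

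Loss of BATF, the AP-1 family factor needed for effector Treg differentiation, was tested in both BATF sets. In BATFKO against WT Treg, edgeR called 0 of 7 members. At an unadjusted p below 0.05 the count was 0 too, DESeq2 called 0, and 1.05% of all genes were called higher and 1.64% lower. S1pr1 was 457 and 608 CPM in BATFKO Treg and 539 and 561 CPM in WT Treg, with WT inside the BATFKO range (log2 change -0.05 ± 0.12 SE). Klf2 (520 and 1368 CPM against 655 and 1538 CPM), Cxcr4 (169 and 218 CPM against 156 and 436 CPM), S1pr4 (175 and 280 CPM against 179 and 251 CPM), Cxcr5 (33.4 and 37.8 CPM against 30.7 and 51.0 CPM) and Gpr183 (92.6 and 132 CPM against 82.8 and 124 CPM) overlapped as well.

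Ccr7 depended on 1 library in this comparison. It was 289 and 833 CPM in BATFKO Treg against 270 and 491 CPM in WT Treg (log2 change 0.56 ± 0.33 SE, edgeR adjusted p = 0.58). Without BATFKO library 1 the change was 1.13 and called (edgeR adjusted p = 0.018), and without BATFKO library 2 it was -0.38. The BATFKO libraries thus lay 1 above both WT libraries and 1 between them.

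In BATFcKO against WT Treg YFP, edgeR also called 0 of 7 members, with 0 at an unadjusted p below 0.05 and 0 by DESeq2; 0.319% of all genes were called higher and 1.72% lower. Several genes were apart in all 4 libraries. The share of all genes that were so was not counted, so this separation does not show a change. Klf2 was 852 and 622 CPM in BATFcKO Treg YFP and 510 and 355 CPM in WT Treg YFP (log2 change 0.77 ± 0.41 SE, edgeR adjusted p = 0.55). S1pr1 was 565 and 524 CPM against 468 and 456 CPM (log2 change 0.24 ± 0.12 SE, edgeR adjusted p = 0.52), and Ccr7 was 401 and 370 CPM against 305 and 279 CPM (log2 change 0.40 ± 0.33 SE, edgeR adjusted p = 0.78). Cxcr4 was 146 and 116 CPM against 99.1 and 90.6 CPM. Cxcr5 was lower, at 28.6 and 30.4 CPM against 37.6 and 40.9 CPM (log2 change -0.41 ± 0.24 SE, edgeR adjusted p = 0.62). S1pr4 and Gpr183 overlapped between the groups. The germline change minus the conditional change was called by edgeR for 0 of 7 members and 0% of all genes. At an unadjusted p below 0.05 it held 0 members and 633 genes, and DESeq2 called 0 members and 11 genes.

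Foxp3 mutation changed Cxcr5 most. In Foxp3R397W Treg it was 8.78 and 7.76 CPM against 36.1 and 32.1 CPM in the control, 4.12-fold lower (log2 change -2.04 ± 0.27 SE, edgeR adjusted p = 0.00012). In Foxp3KO Treg it was 14.3 and 12.6 CPM against 44.7 and 69.0 CPM, 4.23-fold lower (log2 change -2.08 ± 0.22 SE, edgeR adjusted p = 7.6e-06). The mutant libraries lay far below the controls in both sets. Summed B cell markers moved with it, from 23.1 to 25.2 CPM in the control to at most 10.54 CPM in Foxp3R397W Treg and from 25.7 to 33.3 CPM to 11.8 to 13.2 CPM in Foxp3KO Treg, mostly through Cd22 and Cd79b. Ms4a1 and Pax5 stayed at the low values already given.

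The exit and border receptors rose in Foxp3KO Treg. S1pr1 was 872 and 946 CPM against 612 and 495 CPM, 1.64-fold higher (log2 change 0.72 ± 0.12 SE, edgeR adjusted p = 0.00067). Gpr183 was 195 and 207 CPM against 119 and 105 CPM, 1.79-fold higher (log2 change 0.84 ± 0.20 SE, edgeR adjusted p = 0.012). The Gpr183 call was lost without control library 6 or mutant library 2 (edgeR adjusted p = 0.15 and 0.10). Ccr7 was 726 and 890 CPM against 490 and 374 CPM, apart in all 4 libraries but not called (log2 change 0.90 ± 0.33 SE, edgeR adjusted p = 0.10). The share of all genes apart in this way was not counted. Klf2 was 671 and 841 CPM against 556 and 473 CPM (log2 change 0.56 ± 0.41 SE, edgeR adjusted p = 0.53). Cxcr4 was 207 and 219 CPM against 287 and 252 CPM and S1pr4 153 and 152 CPM against 151 and 144 CPM, neither called. With the spread from these 4 libraries alone Cxcr4 was called lower (edgeR adjusted p = 0.0036), in a fit that called 4121 genes rather than 1101.

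In Foxp3R397W Treg S1pr1, Gpr183 and Ccr7 lay on the same side of their control as in Foxp3KO Treg, without being called. The share of all genes that did so was not counted, so this does not show a shared change. S1pr1 was 584 and 675 CPM against 499 and 490 CPM (log2 change 0.35 ± 0.12 SE, edgeR adjusted p = 0.11), Gpr183 99.7 and 121 CPM against 72.1 and 86.3 CPM (log2 change 0.48 ± 0.21 SE, edgeR adjusted p = 0.27), and Ccr7 361 and 372 CPM against 259 and 240 CPM (log2 change 0.56 ± 0.33 SE, edgeR adjusted p = 0.47). All 3 were called when the spread was estimated from these 4 libraries alone (edgeR adjusted p = 0.0092 for S1pr1, 0.0012 for Gpr183 and 8.7e-06 for Ccr7). That fit called 1416 genes rather than 749. Cxcr4 was lower in both mutant libraries, 85.8 and 135 CPM against 167 and 209 CPM (log2 change -0.77 ± 0.38 SE, edgeR adjusted p = 0.33). Klf2 overlapped between groups, and S1pr4 was 190 and 198 CPM against 172 and 157 CPM (log2 change 0.24 ± 0.19 SE, edgeR adjusted p = 0.64).

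Counted over the 7 members, 0 were called higher and 1 lower in Foxp3R397W Treg, against 2.18% and 3.94% of all genes. In Foxp3KO Treg 2 were higher and 1 lower, against 2.62% and 6.39%. The Foxp3KO change minus the Foxp3R397W change was called by edgeR for 0 of 7 members and 0.0164% of all genes. At an unadjusted p below 0.05 it held 1 member, S1pr1 (0.37 ± 0.17 SE), and 407 of all 12227 genes, and DESeq2 called 0 members. The calls of S1pr1 and Gpr183 in 1 mutant therefore do not show that the alleles differ, and the Foxp3KO set had more reads per library.

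With the groups ordered by level, between 2 (Klf2 and Cxcr4) and 7 (Cxcr5) of the 12 neighbouring pairs did not overlap, and levels across sets are given for orientation only. The same count was not made over all genes, so it cannot be said if these numbers are unusual. Ccr7 was highest in Foxp3KO Treg (808 ± 116 CPM, SD, n = 2) and lowest in eTreg (86.8 ± 2.7 CPM, SD, n = 2), with Teff next lowest. S1pr1 ran from Tconv (1071 ± 52 CPM, SD, n = 2) and Foxp3KO Treg down to Teff (277 ± 2.0 CPM, SD, n = 2) and eTreg (169 ± 7.0 CPM, SD, n = 2), and these last 2 were separate from each other and from all higher groups. S1pr4 ran only from 297 CPM in cTreg to 148 CPM in the Foxp3KO control, a 2.01-fold range. Klf2 ran from 1296 ± 636 CPM (SD, n = 2) in Tconv to 134 ± 30 CPM (SD, n = 2) in eTreg, a 9.68-fold range, and the 10 highest groups each overlapped their next neighbour. Cxcr4 ran from 296 ± 198 CPM (SD, n = 2) in WT Treg to 94.8 ± 6.1 CPM (SD, n = 2) in WT Treg YFP. Cxcr5 had the widest range, 78.8-fold, from Teff and eTreg at the top to Foxp3R397W Treg and Tnaive at the bottom. Gpr183 ran from Tconv (335 ± 60 CPM, SD, n = 2) and Foxp3KO Treg (201 ± 8.6 CPM, SD, n = 2), both separate from all groups below, to WT Treg YFP (48.8 ± 3.9 CPM, SD, n = 2).

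Within sets, some members varied together. After subtracting the mean of each set, the log2 CPM of Ccr7 and S1pr1 had a Pearson r of 0.91 over the 26 libraries, S1pr4 and Klf2 0.89, Ccr7 and Cxcr5 -0.89, and S1pr1 and Cxcr5 -0.83. Cxcr4 and Gpr183 had an r between -0.31 and 0.39 with every other member. These values describe libraries that share groups, depth and handling. They include the sorted set, whose groups were defined in part by CCR7 protein. The r values of Ccr7, also those with its most alike genes below, therefore describe the sort in part. By the same measure, among 9352 genes with a mean of at least 5 CPM, the genes most like Ccr7 were Abhd11 (0.98), Klf13 (0.98) and Actn1 (0.97). Those most like S1pr1 were Sox4 (0.97), Fam65b (0.97) and Galnt10 (0.97), and those most like Cxcr5 were Acot7 (0.98), Serpina3g (0.97) and Bmp7 (0.97). S1pr4 was closest to Midn (0.96), Srebf1 (0.94) and Mknk2 (0.93), and Klf2 to Ccdc64 (0.95), Mpnd (0.93) and Mark2 (0.92). The likeness was weaker for Gpr183, with Mex3c (0.88), Trim13 (0.87) and Fbxo42 (0.83), and for Cxcr4, with Akna (0.84), Ubash3a (0.83) and Itpkb (0.82).

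Other genes of sphingosine 1-phosphate biology, 16 in the list and 11 tested, included a receptor that moved against S1pr1. S1pr2, which inhibits migration and holds cells in follicles, was 41.8 ± 4.1 CPM (SD, n = 2) in eTreg and 14.8 ± 1.3 CPM (SD, n = 2) in cTreg (2.82-fold higher, edgeR adjusted p = 2.1e-06). In Teff against Tnaive its log2 change was 2.53 ± 0.18 SE (edgeR adjusted p = 3.4e-09), in BATFcKO Treg YFP it was -1.11 ± 0.21 SE (edgeR adjusted p = 0.0060) and in Foxp3KO Treg -0.66 ± 0.16 SE (edgeR adjusted p = 0.014). Of the 11 genes, 3 were higher and 1 lower in eTreg, against 18.8% and 12.3% of all genes. In Teff 6 were higher and 1 lower, against 21.2% and 14%. Sgpl1, the lyase that degrades sphingosine 1-phosphate, was higher in both eTreg (0.56 ± 0.08 SE) and Teff (0.40 ± 0.08 SE). Cd69, whose protein removes S1PR1 from the cell surface, was not called in any of the 9 comparisons between 2 groups (for example -0.55 ± 0.24 SE in eTreg, edgeR adjusted p = 0.093).

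Among 18 genes upstream of KLF2 or related to it, 6 were lower and 1 higher in eTreg, against 12.3% and 18.8% of all genes. In Teff 6 were lower and 2 higher, against 14% and 21.2%. Foxp1, a forkhead factor of quiescent T cells, was 203 ± 7.6 CPM (SD, n = 2) in eTreg and 475 ± 10 CPM (SD, n = 2) in cTreg (log2 change -1.23 ± 0.10 SE, edgeR adjusted p = 2.4e-08), and its change in Teff was -1.25 ± 0.10 SE. Foxo1, the forkhead factor known to promote Klf2, changed by -0.75 ± 0.10 SE in eTreg (edgeR adjusted p = 1e-05) and -1.14 ± 0.10 SE in Teff (edgeR adjusted p = 4.4e-08). Klf7 (-1.65 ± 0.23 SE) and Klf3 (-0.75 ± 0.12 SE) were also lower in eTreg. Foxp1 was the only gene of the list called in either Foxp3 mutant, higher in Foxp3R397W Treg (0.47 ± 0.10 SE, edgeR adjusted p = 0.0058) and in Foxp3KO Treg (0.58 ± 0.10 SE, edgeR adjusted p = 0.00073). No gene of the list was called by edgeR after loss of BATF in either set, with 0 and 2 of 18 at an unadjusted p below 0.05, where 1460 and 1305 of all 12227 genes were. DESeq2 was not counted over this list.

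Among adhesion genes of lymph node entry, 2 of the 15 counted were higher and 6 lower in eTreg (all genes 18.8% and 12.3%), and 4 were higher and 4 lower in Teff (all genes 21.2% and 14%). Itgb1, the beta subunit of VLA integrins, was higher in eTreg (2.91 ± 0.14 SE) and Teff (4.31 ± 0.15 SE) and lower in both BATF mutants (-2.98 ± 0.15 SE and -2.86 ± 0.15 SE) and both Foxp3 mutants (-1.73 ± 0.14 SE and -1.42 ± 0.13 SE). It was the only 1 of 16 tested genes called after loss of BATF. Rasgrp2, an activator of RAP1 and integrins, was lower in eTreg (-1.87 ± 0.20 SE) and higher in Foxp3R397W Treg (0.89 ± 0.19 SE) and Foxp3KO Treg (0.97 ± 0.19 SE).

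Of 25 tested genes that carry or damp chemoattractant receptor signals, 6 were higher and 4 lower in eTreg, near the shares of all genes (18.8% and 12.3%). In Teff 9 were higher and 7 lower, against 21.2% and 14%. Gnaq, a G protein alpha subunit, was higher in eTreg (2.70 ± 0.24 SE), Rgs16, which switches G proteins off, likewise (3.49 ± 0.49 SE), and so was Rgs3 (1.20 ± 0.13 SE). In the Foxp3 mutants 4 of 25 were lower and 0 higher in each, where 3.94% (Foxp3R397W) and 6.39% (Foxp3KO) of all genes were lower. Gnaq (-1.29 ± 0.25 SE and -1.35 ± 0.22 SE), Rhoh (-0.60 ± 0.11 SE and -0.53 ± 0.11 SE) and Rgs3 (-0.64 ± 0.13 SE and -0.49 ± 0.12 SE) were among them in both. None of the 25 was called by edgeR after loss of BATF, with 3 at an unadjusted p below 0.05 in each set, where 1460 (BATFKO) and 1305 (BATFcKO) of all 12227 genes were. Ligands of these receptors, enzymes of oxysterol metabolism and the scavenging receptors were mostly silent: 1 of 10, Hsd3b7, passed the expression filter. It was called higher in eTreg than in Teff (log2 change 0.79, where 8.21% of all genes were higher) and in no other comparison. Ccl19 and Ccl21a did not exceed 0.10 and 0 CPM.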

How the data were processed

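Poly(A) RNA of 26 libraries was sequenced, with 1 of 2 library kits that the labels do not assign to samples. The values used are whole-number read counts per gene as deposited by the authors, not normalized. The submitters' processing notes name mm10 and STAR 2.6.1c; the counting tool and its strand setting are not given in the sources used here. Another 4 count columns match no label and were not used. No row of the table lacks a gene name or holds a total. A further table with counts of the same libraries was not used.

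Counts were fitted with edgeR 4.0.16 (limma 3.58.1, R 4.3.3): TMM scaling, filterByExpr (12227 of 24411 genes kept), and quasi-likelihood tests with 1 coefficient per group over all 26 libraries, so that the 13 groups share 1 estimate of the spread with 13 residual degrees of freedom. P-values were adjusted by Benjamini-Hochberg over all 12227 genes, and a call means adjusted p below 0.05. CPM uses TMM library sizes; RPKM divides it by GENCODE M21 exon length; SE is the size of the log2 change over the square root of F. The fit was tested on simulated data. Alternatives were DESeq2 1.42.0, its size factors in edgeR, no expression filter, each comparison's libraries alone, a replicate block, and each library left out; the split by library number was chosen after seeing the data. With 2 libraries per group precision is limited, and low CPM rests on few reads.

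The members and lists were chosen with earlier results of these data known. The rule names all 7 members; from each list up to 4 called genes with the smallest p and up to 2 uncalled ones are named; likeness names the 3 genes with the highest r per member. Batf and Foxp3 check the labels. Jun, the Cd69 values set beside it, Ccl19, Ccl21a and the single marker genes fall outside this rule and were chosen after their values were seen. Some gate and marker items are not reported here.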

Additional observations from a re-analysis of the deposited data

Results flagged for a closer look

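Results of 2 genes differed between groups under the same contrast by a test of the difference itself. The change of S1pr1 from resting to effector cells was lower in Treg than in conventional cells by -0.81 ± 0.17 (SE) on the log2 scale (edgeR adjusted p = 0.0056), with both effector libraries below both resting libraries in each lineage. For Cxcr5 the difference was -3.42 ± 0.37 (SE) (edgeR adjusted p = 8.6e-06): all 4 effector libraries were above the resting libraries of their lineage, from 3.26 and 2.30 CPM in Tnaive and 21.4 and 20.1 CPM in cTreg. The Tnaive values rest on 32 and 23 reads.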

How the results depend on the processing

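Over 70 results recomputed under the alternatives, 597 of 672 values stayed the same and 75 did not, and the causes were not tested. The same means an unchanged direction and side of the threshold. For Ccr7 in the gated comparisons, which had no test, it means an unchanged direction and a shift within the spread of the libraries. Of the 75 values, 3 were Ccr7 shifts larger than that spread. With 2 libraries a group, a lone library in a group is assumed to vary like the other groups. DESeq2 and its size factors changed the number of members called in no comparison.

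Fitting each comparison on its own libraries called 4 members in Teff against Tnaive, 2 in cTreg against Tnaive, 4 in eTreg against Teff, 4 in the difference between the lineages, 1 in WT Treg against Tconv, 4 in Foxp3R397W Treg and 4 rather than 3 in Foxp3KO Treg (Cxcr4 gained). The genes called then were 5851 rather than 3800 in eTreg against cTreg, 2933 rather than 1492 in cTreg against Tnaive, 1174 rather than 663 in the lineage difference, 519 rather than 2292 in WT Treg against Tconv, 2 rather than 329 in BATFKO, 378 rather than 249 in BATFcKO, 1416 rather than 749 in Foxp3R397W, 4121 rather than 1101 in Foxp3KO and 7 rather than 2 in the difference of the Foxp3 mutants. In the difference of the BATF changes, where edgeR called 0 genes, no expression filter gave 6. Without the filter 1 member was called in eTreg against Teff, and Gpr183 in eTreg (edgeR adjusted p = 0.071) and Ccr7 in WT Treg (edgeR adjusted p = 0.11) lost their calls.

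Library numbers are shared by groups of the sorted, germline and conditional sets, but no label says what they mark. Same-numbered libraries deviated together with r of 0.495 to 0.571 in the germline set, 0.242 in the conditional set and 0.080 to 0.233 in the sorted set. A fit with a replicate block called 4 members in Teff against Tnaive, 3 in cTreg against Tnaive, 4 in eTreg against Teff, 5 in the lineage difference (Klf2, Gpr183 and S1pr4 gained, edgeR adjusted p = 0.0056, 8.2e-05 and 0.0053) and 1 (Klf2, edgeR adjusted p = 0.03) in BATFcKO. With the block, genes called were 5973 (eTreg against cTreg), 6486 rather than 4312 (Teff against Tnaive), 2897 (cTreg against Tnaive), 3609 rather than 1892 (eTreg against Teff), 1641 (lineage difference), 4168 (WT Treg against Tconv), 1036 (BATFKO), 1115 (BATFcKO) and 139 (difference of BATF changes).

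Leaving out 1 library gave 3 to 4 members called in eTreg against cTreg, 1 to 2 in eTreg against Teff and 0 to 1 in BATFKO against WT Treg. Genes called moved by over 1.5 times without any 1 library in BATFcKO (73 to 160 against 249), Foxp3R397W (329 to 412 against 749) and Foxp3KO (417 to 693 against 1101), without WT Treg library 2 in BATFKO (176), without Teff 1, eTreg 2 or eTreg 1 in eTreg against Teff (1168, 1179 and 1242), without Tnaive 1 in cTreg against Tnaive (993) and without cTreg 2 in the lineage difference (431). The difference of the BATF changes held 1 gene without WT Treg 2 and 23 without BATFKO 2, and that of the Foxp3 mutants 0 without any 1 library. Uncalled changes crossed 0 over these fits. In cTreg against Tnaive S1pr4 ranged from -0.042 to 0.10 and Cxcr4 from -0.25 to 0.42. In Teff against Tnaive Cxcr4 ranged from -0.22 to 0.40 and Gpr183 from -0.32 to 0.059. In WT Treg against Tconv S1pr4 ranged from -0.32 to 0.25, Klf2 from -1.002 to 0.36 and Cxcr4 from -0.64 to 0.92. In BATFKO against WT Treg Ccr7 ranged from -0.38 to 1.13, S1pr1 from -0.25 to 0.14, S1pr4 from -0.28 to 0.38, Klf2 from -1.06 to 0.54, Cxcr4 from -1.17 to 0.32, Cxcr5 from -0.52 to 0.22 and Gpr183 from -0.15 to 0.45. Gpr183 in BATFcKO ranged from -0.11 to 0.20 and Klf2 in Foxp3R397W from -0.22 to 0.44. In BATFKO against WT Treg, libraries numbered 1 alone gave -0.022 for S1pr4, 0.13 for Cxcr4 and 0.13 for Cxcr5. Libraries numbered 2 alone gave 0.11 for S1pr1. Both of these fits had 1 library a germline group and so no replicate behind them. With all 26 libraries, DESeq2 called 11 genes in the difference of the BATF changes.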
